A study of Mus musculus with 6 samples.

Results

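AMP-activated protein kinase (AMPK) subunits and the kinases around them were followed in the livers of trained and untrained mice. The 10 genes were chosen by symbol: the catalytic subunits Prkaa1 and Prkaa2, the scaffold subunits Prkab1 and Prkab2, the nucleotide-binding subunits Prkag1 and Prkag2, the activating kinase gene Stk11, the kinase gene Mtor with its partner Rptor, and Ddit4, which encodes an inhibitor of that kinase. All 10 were among the 16123 genes of the deposited table. The exercise group was 3 libraries from healthy adult mice trained by running over 6 weeks, with 22 km run per mouse, killed 24 h after their last session. The sedentary group was 3 libraries from mice that had no treadmill training. Bodies were perfused with buffered saline, and the sources used here give no strain, sex or exact age. The series asks how moderate exercise changes liver metabolism, with protein lactylation as its main interest.

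AMPK is a complex of a catalytic alpha, a scaffolding beta and a regulatory gamma subunit that senses a fall in cellular energy through adenine nucleotides bound to gamma. LKB1, the product of Stk11, activates it by phosphorylating the alpha subunit. Active AMPK slows fatty acid and cholesterol synthesis in liver, and it restrains mTOR complex 1, the growth-promoting kinase complex built on mTOR and raptor, in part through raptor itself. These steps run largely through phosphorylation, which RNA levels do not show.

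Libraries held 17941303 to 18067298 counts in the exercise group and 18164094 to 18371949 in the sedentary group. Libraries of 1 group differed little more than counting noise: chi-square values per gene averaged 4.51 to 4.81 for an exercise and a sedentary library and 1.13 to 1.21 within a group, where noise alone gives 1. The design text describes 3 mice per group, but the p-values measure only the spread between these libraries, which may be technical. The 7 hepatocyte markers had 4 genes higher and 2 lower in exercise, the lower ones being Apoa1 (log2 fold change −0.11) and the albumin gene Alb (−0.08), neither of which passed with library totals or on the FPKM and TPM scales, where Alb was at 0.03 in TPM. Together the 7 summed to 105850 to 106000 TPM in exercise and 100810 to 102170 TPM in sedentary libraries. On the TPM scale the median log2 fold change of all tested genes was itself 0.0956, which bears on all sums given here. Markers of Kupffer cells and other macrophages had 6 of 8 genes lower and none higher in exercise, with summed levels of 235 to 240 TPM against 279 to 281 TPM in sedentary libraries. Endothelial markers had 2 of 8 genes higher and none lower, at 149 to 160 TPM in exercise and 133 to 134 TPM in sedentary libraries. Beside each of these marker lists, 19.1% of all tested genes were higher in exercise and 19.0% lower. Stellate cell and fibroblast markers had 3 of 6 tested genes higher and 1 lower, at 122 to 123 TPM in exercise and 94.7 to 98.0 TPM in sedentary libraries. Most of that sum was Dcn, at 79.9 FPKM in exercise and 62.6 FPKM in sedentary livers. Lrat and Reln also rose, Col3a1 fell by 0.36 on the log2 scale, and Pdgfrb and Des did not pass. Cholangiocyte markers had 1 of 2 tested genes lower (Spp1), at 41.9 to 44.5 TPM in exercise and 78.9 to 82.0 TPM in sedentary libraries. That sum was mostly Spp1, at 30.5 FPKM in exercise and 60.7 FPKM in sedentary livers. Sox9, at 1.22 and 1.43 FPKM in the same order, did not pass. Epcam, Krt19 and Krt7 averaged 0.867, 0.79 and 0.408 FPKM over all libraries and were not tested. Erythroid markers had 3 of 3 genes lower, at 324 to 334 TPM in exercise and 358 to 377 TPM in sedentary libraries, though Alas2 turned in sign on the TPM scale and Hba-a1 did not pass there. Of the pancreatic acinar markers the 1 tested gene, Cela1, fell by 0.54 on the log2 scale, and the list summed to 9.55 to 10.8 TPM in exercise and 16.2 to 17.3 TPM in sedentary libraries. The part of these cell types in the results below was not tested, and in whole liver fewer cells of a type cannot be told apart from less RNA per cell.

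Of the 10 genes, 9 reached the mean of 1 FPKM (fragments scaled by transcript length and library size) that was required for testing, and 2 of these 9 passed the threshold, an adjusted p under 0.05. Prkag2 fell and Stk11 rose. Among all 10266 tested genes 38.1% passed, made up of 19.1% that were higher in exercise and 19.0% that were lower. The median absolute log2 fold change was 0.04 over the 9 tested members and 0.12 over all tested genes. Prkab2, the tenth gene, lay below the required level, with more reads in every exercise than in every sedentary library. By FPKM the groups did not overlap for 3 of the 10 genes, and for 51.0% of the tested genes. Prkab2 and Stk11 were higher in exercise without overlap, as were 36.6% of all tested genes. Prkag2 was lower without overlap, as were 14.3% of all tested genes. The 10 genes thus showed no larger a share of changes than the table as a whole.

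**Figure D1:**
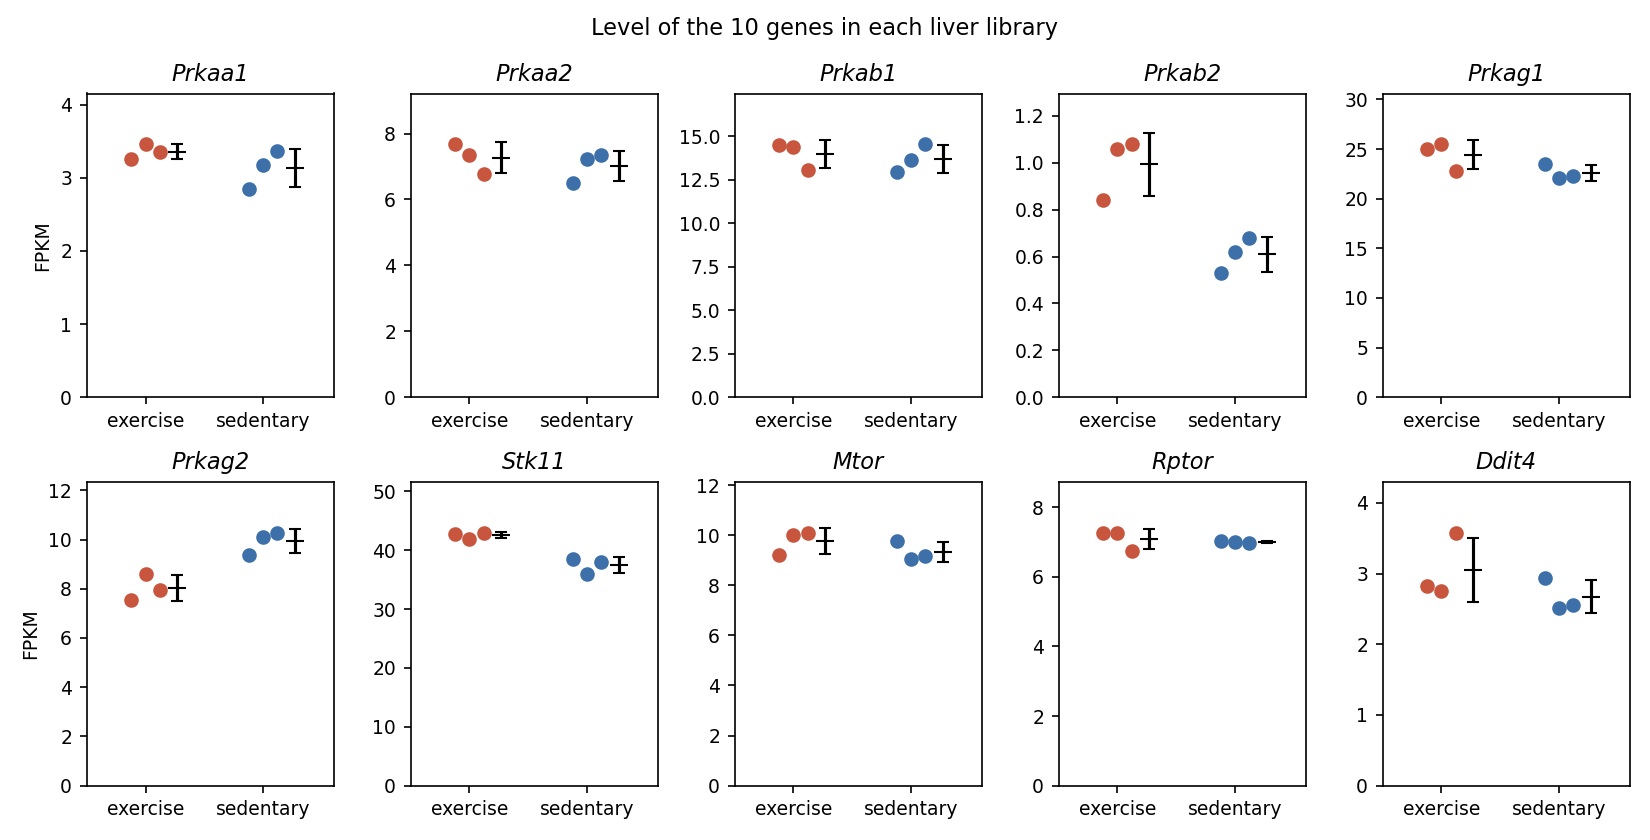
FPKM of each of the 10 genes (vertical axes, each starting at 0) in the 3 exercise and 3 sedentary liver libraries, 1 point per library, with the mean and SD of the group as a bar beside the points. Exercise points lie above all sedentary points for Prkab2 and Stk11 and below them for Prkag2, and the groups overlap for the other 7 genes.

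The regulatory subunit gene Prkag2 (gene ID 108099, chromosome 5, 24862735 to 25106282 in GRCm38.p6, protein-coding) encodes gamma2, 1 of the subunits that bind AMP, ADP and ATP. It had 373, 427 and 364 reads in exercise libraries and 490, 519 and 512 in sedentary libraries. On the FPKM scale it was at 7.54, 8.60 and 7.93 in exercise livers and at 9.37, 10.1 and 10.3 in sedentary livers. Every exercise library was below every sedentary library on both scales. The log2 fold change, exercise over sedentary, was −0.44 (SE 0.06, edgeR adjusted p = 3.96e-08), a ratio of 0.736 with a 95% interval of 0.677 to 0.80. Prkag2 had the largest change of the 9 tested members, and its absolute change ranked 710 among the 10266 tested genes. The fall held against a tested size of 1.2-fold (edgeR adjusted p = 0.00921), which 6.36% of tested genes passed, and without any 1 library, where the log2 fold change ran from −0.52 to −0.40. On the FPKM scale it was smaller, at −0.28 with limma on log2(FPKM + 1), which still passed (limma adjusted p = 0.00951). With 1 summed library per group and an assumed biological variation of 0.1, at which 1.71% of tested genes passed, the same change did not pass (edgeR adjusted p = 0.652).

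The RefSeq promoter table used here gives 3 start sites of Prkag2 in GRCm38.p6, far apart on the minus strand, whose transcripts differ in length, and the RefSeq span of the gene begins further upstream, at 25106282. The 250 bases before and 50 bases after each start are printed because transcripts of the gene with the clearest change begin there. They lie at chr5:25100593-25100892 for the first start, chr5:24995704-24996003 for the second and chr5:24908460-24908759 for the third. Capitals mark GC boxes, GGGCGG on either strand.
Prkag2 start 1: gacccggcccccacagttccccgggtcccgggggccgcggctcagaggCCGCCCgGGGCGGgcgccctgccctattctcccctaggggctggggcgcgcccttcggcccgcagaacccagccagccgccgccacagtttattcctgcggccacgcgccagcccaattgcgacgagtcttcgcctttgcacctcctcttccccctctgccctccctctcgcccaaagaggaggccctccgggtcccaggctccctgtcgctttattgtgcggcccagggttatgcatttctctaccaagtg
Prkag2 start 2: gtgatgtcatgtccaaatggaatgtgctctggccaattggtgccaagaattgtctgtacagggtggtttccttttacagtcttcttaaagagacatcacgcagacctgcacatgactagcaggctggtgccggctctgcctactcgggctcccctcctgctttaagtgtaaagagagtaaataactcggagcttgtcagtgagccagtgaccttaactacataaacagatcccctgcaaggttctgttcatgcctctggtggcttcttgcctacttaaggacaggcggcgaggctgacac
Prkag2 start 3: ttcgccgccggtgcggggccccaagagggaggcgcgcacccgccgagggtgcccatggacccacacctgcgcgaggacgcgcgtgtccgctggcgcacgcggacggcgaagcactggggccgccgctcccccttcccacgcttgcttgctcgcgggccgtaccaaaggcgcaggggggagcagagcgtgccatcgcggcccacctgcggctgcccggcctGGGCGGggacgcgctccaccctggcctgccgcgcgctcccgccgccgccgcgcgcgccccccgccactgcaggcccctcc
The window of the first start held 2 GC boxes and 25 CpG dinucleotides, that of the second no GC box and 6, and that of the third 1 GC box and 45. CCAAT occurred 1 time in the first window, 2 times in the second, where the matches on opposite strands overlap each other, and not in the third, counting both strands. Of all 32851 RefSeq windows of this length, 35.7% held a GC box, and the median window had 7 CpG dinucleotides. The first and the third windows were thus rich in CpG and the second was not.

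Matched against the GENCODE M21 annotation of the same build, the first start belongs to a transcript of 3331 bases in 16 exons, the second to one of 2838 bases in 14 exons, and the window of the third holds the start of one of 2205 bases in 12 exons, among shorter ones. The deposited counts do not separate these transcripts. A length can be read back from them, however, as the count divided by the FPKM and by the library's total. For genes with a single protein-coding transcript this implied length was somewhat below the annotated one, 1367 to 1380 bases for Ddit4 over the 6 libraries, with 1755 annotated, and 7838 to 7890 bases for Prkaa2, with 7969 annotated. For Prkag2 it was 2738, 2767 and 2547 bases in exercise libraries and 2846, 2823 and 2724 bases in sedentary libraries. The groups overlapped, with the shortest value in exercise replicate 3. Among 8829 tested genes with a mean count of at least 100, implied lengths did not overlap between groups for 9.65%. The largest implied length of Prkag2 was 1.117 times the smallest, a spread as large as or larger than that of 96.1% of those genes. Among the other 9 members the ratio ran from 1.004 for Prkaa1 to 1.045 for Prkab2. In RefSeq, 6 long non-coding genes overlap the span of Prkag2. They were not analysed here, and the sources used here do not say whether counting used strand.

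**Figure D2:**
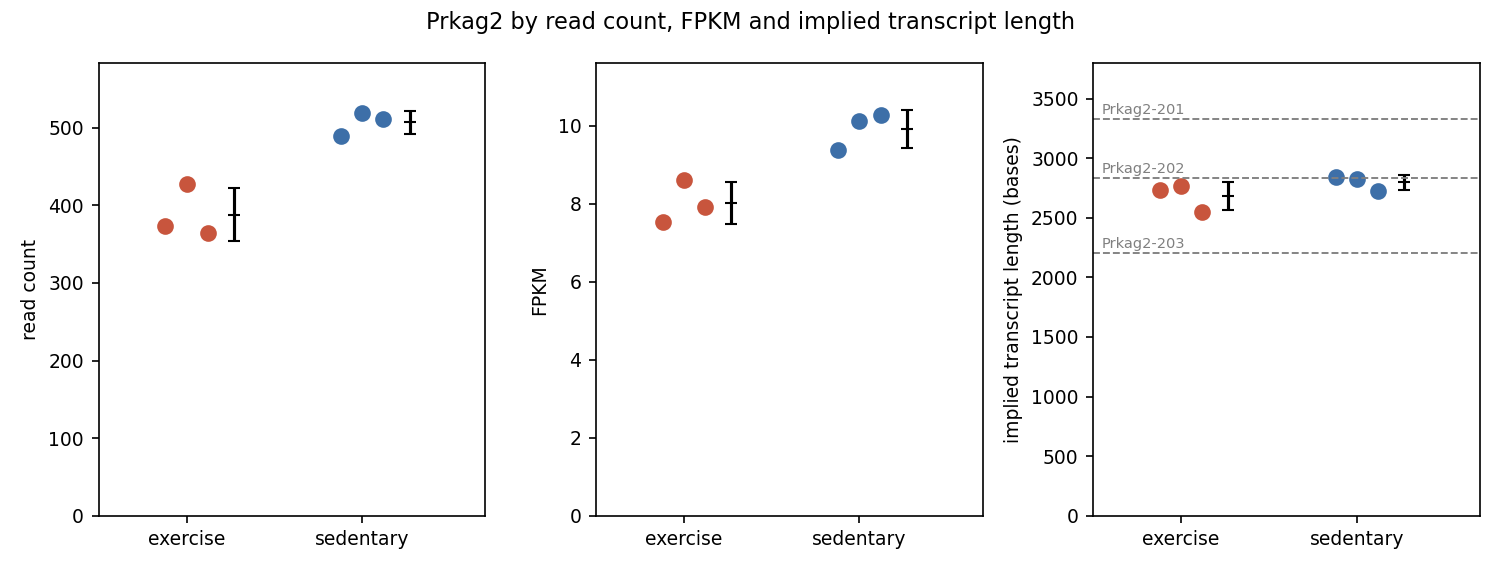
Prkag2 in the 3 exercise and 3 sedentary libraries as read count (left), FPKM (middle) and implied transcript length in bases (right), 1 point per library, with group mean and SD as bars. Counts and FPKM are lower in every exercise library, while implied lengths of 2547 to 2767 bases in exercise and 2724 to 2846 bases in sedentary libraries overlap. Dashed lines are the annotated lengths of the 3 transcripts, 3331, 2838 and 2205 bases.

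The genes whose profile over the 6 libraries was closest to that of Prkag2, by the Euclidean distance of centred log2 scaled counts, were Cirbp, Eef1akmt1, Lsm8, Trim12c and Eri2. Their distances were 0.0713 to 0.0974 log2 units among 10265 genes searched. All of them were lower in exercise, with log2 fold changes of −0.46 to −0.43, which follows from choosing them by closeness to Prkag2 in the same libraries. Cirbp, which encodes a cold-inducible RNA-binding protein, was at 11.9 ± 1.01 FPKM in exercise and 15.7 ± 0.382 FPKM in sedentary livers (SD, n = 3 each, log2 fold change −0.45).

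The other gamma gene, Prkag1 (gene ID 19082, chromosome 15, 98812797 to 98831508), encodes gamma1, the regulatory subunit found in most tissues. It was at 25.0, 25.5 and 22.8 FPKM in exercise livers and at 23.5, 22.1 and 22.3 FPKM in sedentary livers. The groups overlapped, since exercise replicate 3 was below sedentary replicate 1. It did not pass, with a log2 fold change of 0.04 (SE 0.05, edgeR adjusted p = 0.619). The interval of the ratio was 0.953 to 1.1. Prkag3, the gamma gene of skeletal muscle, is not among the 10 genes and had 1 read in exercise replicate 2 and none in the other 5 libraries.

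Levels per transcript were compared in TPM, which is scaled to the same sum in every library. The median log2 fold change of all tested genes on that scale, 0.0956, also bears on the subunit sums below. Prkag2 made up 23.2%, 25.2% and 25.8% of the summed gamma TPM in exercise libraries and 28.5%, 31.5% and 31.6% in sedentary libraries. All exercise shares lay below all sedentary shares. The mean share was 24.7% ± 1.39 in exercise and 30.5% ± 1.76 in sedentary livers (SD, n = 3 each). The summed gamma level itself was 39.5 to 43.8 TPM in exercise and 40.5 to 41.1 TPM in sedentary libraries, so the range of the exercise group enclosed that of the sedentary group.

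The scaffold gene Prkab1 (gene ID 19079, chromosome 5, 116013586 to 116024503) encodes beta1, the main beta subunit of rodent liver. It was at 14.5, 14.4 and 13.1 FPKM in exercise livers and 12.9, 13.7 and 14.6 FPKM in sedentary livers. These ranges nearly coincided. The log2 fold change was −0.04 (SE 0.06, edgeR adjusted p = 0.61), with an interval of 0.894 to 1.05 for the ratio.

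Prkab2 (gene ID 108097, chromosome 3, 97658211 to 97673812) encodes beta2, which is prominent in skeletal muscle and is scarce in mouse liver. It had 70, 86 and 92 reads in exercise libraries and 45, 53 and 58 reads in sedentary libraries. Its level was 0.840, 1.06 and 1.08 FPKM in exercise livers and 0.530, 0.620 and 0.680 FPKM in sedentary livers. Every exercise library was above every sedentary one. With a mean of 0.802 FPKM over the 6 libraries Prkab2 was not tested under the filter. In the fit without a filter, in which 24.3% of 16093 genes passed, its log2 fold change was 0.62 (SE 0.15, edgeR adjusted p = 0.0026), a ratio of 1.54 with an interval of 1.24 to 1.90. That call ended without sedentary replicate 1 (edgeR adjusted p = 0.0525), against a tested size of 1.2-fold (0.0625) and at an assumed variation of 0.1 (0.402). Its log2 fold change was 0.31 on the log2(FPKM + 1) scale, which understates changes of low genes. Skeletal muscle markers summed to at most 0.06 TPM in exercise and at most 0.31 TPM in sedentary libraries, over Acta1, Ckm and Myh4.

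The window around the start of Prkab2, chr3:97657962-97658261 on the plus strand, is printed because this gene had the largest ratio of the 10, with GC boxes in capitals.
Prkab2: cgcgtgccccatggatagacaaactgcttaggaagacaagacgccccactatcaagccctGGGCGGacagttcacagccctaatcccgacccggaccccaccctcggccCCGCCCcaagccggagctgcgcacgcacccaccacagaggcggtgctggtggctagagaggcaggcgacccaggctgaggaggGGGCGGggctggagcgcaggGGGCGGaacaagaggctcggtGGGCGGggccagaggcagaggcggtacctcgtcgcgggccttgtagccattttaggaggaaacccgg
It held 5 GC boxes and 23 CpG dinucleotides, and no CCAAT or TATAAA on either strand.

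Prkab2 accounted for 5.49%, 6.86% and 7.62% of the summed beta TPM in exercise libraries and 3.92%, 4.34% and 4.45% in sedentary libraries, without overlap. The mean share was 6.65% ± 1.08 in exercise and 4.24% ± 0.280 in sedentary livers (SD, n = 3 each). Beta transcripts were thus almost all Prkab1 in both groups. Summed beta levels were 18.2 to 19.8 TPM in exercise and 16.8 to 19.1 TPM in sedentary libraries, which overlap.

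The catalytic subunit genes did not pass. Prkaa1 (gene ID 105787, chromosome 15, 5143861 to 5181899), the alpha1 gene, was at 3.26, 3.46 and 3.35 FPKM in exercise and 2.85, 3.18 and 3.37 FPKM in sedentary livers. Its log2 fold change was 0.02 (SE 0.08, edgeR adjusted p = 0.863), with an interval of 0.911 to 1.13 for the ratio. Prkaa2 (gene ID 108079, chromosome 4, 105029649 to 105109898), the alpha2 gene, was at 7.68, 7.36 and 6.76 FPKM in exercise and 6.50, 7.23 and 7.34 FPKM in sedentary livers. Its log2 fold change was −0.03 (SE 0.05, edgeR adjusted p = 0.662), with an interval of 0.921 to 1.04. Both genes overlapped between groups. The sign of the change of Prkaa2, Prkab1, Mtor and Rptor turned with the scaling, as it was above 0 with library totals alone and on the FPKM and TPM scales, and none of them passed there.

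Prkaa1 made up 29.8% to 33.1% of the summed alpha TPM in exercise and 30.5% to 31.5% in sedentary libraries, so alpha2 transcripts were the larger part in all 6. The alpha sum was 13.0 to 14.0 TPM in exercise and 11.7 to 13.4 TPM in sedentary libraries. In each library the gamma sum exceeded the beta sum, and the beta sum exceeded the alpha sum. Of the isoform shares, that of alpha overlapped between groups, and those of beta and gamma did not. The beta and gamma shares contain the levels of Prkab2 and Prkag2, whose groups already did not overlap. By FPKM that was so for 51.0% of tested genes.

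**Figure D3:**
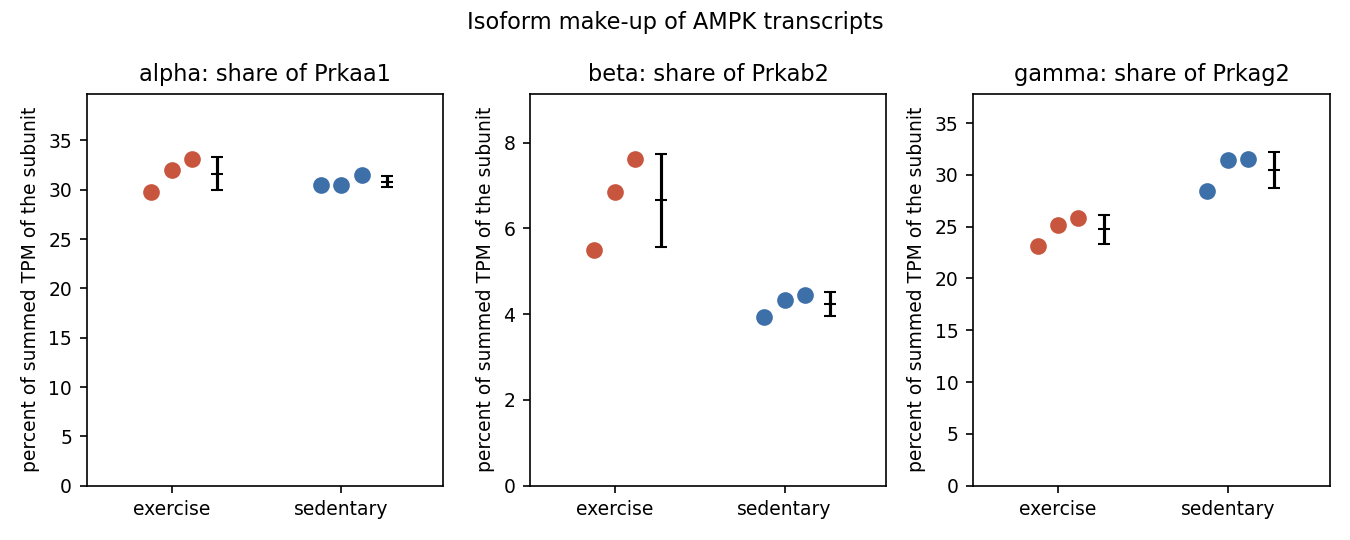
Share of 1 isoform gene in the summed TPM of its AMPK subunit, in percent (vertical axes from 0), for the 3 exercise and 3 sedentary libraries, 1 point per library, with group mean and SD as bars. Prkaa1 shares overlap, Prkab2 shares of 5.49% to 7.62% in exercise lie above 3.92% to 4.45% in sedentary libraries, and Prkag2 shares of 23.2% to 25.8% in exercise lie below 28.5% to 31.6%.

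Stk11 (gene ID 20869, chromosome 10, 80115767 to 80130679) encodes LKB1, which activates AMPK and a set of related kinases. It had 1717, 1673 and 1728 reads in exercise libraries and 1568, 1451 and 1546 in sedentary libraries. Its FPKM was 42.7, 42.0 and 43.0 in exercise and 38.5, 36.0 and 38.0 in sedentary livers, without overlap. Stk11 rose by a small amount, with a log2 fold change of 0.11 (SE 0.03, edgeR adjusted p = 0.0113) and a ratio of 1.08 with an interval of 1.03 to 1.13. The call ended without sedentary replicate 2, the lowest library (log2 fold change 0.08, edgeR adjusted p = 0.115), and with DESeq2 (adjusted p = 0.0639), under which 24.5% of genes passed. It also ended against a tested size of 1.2-fold and with summed libraries at an assumed variation of 0.1 (edgeR adjusted p = 1 in both). On the TPM scale its difference was 0.21 log2 units, and on that scale the median of all tested genes was 0.0956. Cbarp, whose span overlaps that of Stk11, had mean counts of 12.3 in exercise and 15.7 in sedentary libraries.

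The window around the start of Stk11 (chr10:80115545-80115844, plus strand), the other called gene, follows with its GC box in capitals.
Stk11: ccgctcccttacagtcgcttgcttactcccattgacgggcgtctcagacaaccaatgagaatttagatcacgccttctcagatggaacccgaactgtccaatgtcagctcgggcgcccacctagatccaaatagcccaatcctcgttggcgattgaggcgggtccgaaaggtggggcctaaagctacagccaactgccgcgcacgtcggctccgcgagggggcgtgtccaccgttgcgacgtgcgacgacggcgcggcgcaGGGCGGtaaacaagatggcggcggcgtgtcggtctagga
It held 1 GC box, 33 CpG dinucleotides and 3 CCAAT motifs, counted on both strands, and 37.4% of all windows held the last of these. The letters TGACG, the core of the CREB and ATF site, occurred 1 time, and ACGTG, the core of the hypoxia response element, 2 times. All windows held these in 20.8% and 19.6% of cases, with ACGTG also counted where it is part of CACGTG. A match to GTAAACA, the FOXO site, which 3.65% of windows hold, shares 1 base with the GC box. Among the 12 windows of the 10 genes, CACGTG (the E-box) and TATAAA had no match, and 7.15% and 13.6% of all windows held them.

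LKB1 works in a complex with a STRAD pseudokinase and the scaffold MO25, and calcium-activated CAMKK2 can also activate AMPK. Of 7 tested genes for activating kinases and their partners, Stk11 and Cab39 rose, none fell, and the median log2 fold change was −0.03, beside −0.00062 over all tested genes. Cab39, an MO25 gene, was at 17.4 ± 0.734 FPKM in exercise and 15.3 ± 0.314 FPKM in sedentary livers (SD, n = 3 each). The change of 0.11 on the log2 scale passed (edgeR adjusted p = 0.0337), though not under every scaling. Strada was at 1.51 FPKM in exercise and 1.80 FPKM in sedentary livers (adjusted p = 0.127, edgeR). Camkk2 was at 2.09 FPKM in exercise and 2.10 FPKM in sedentary livers (adjusted p = 0.242, edgeR).

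Mtor (gene ID 56717, chromosome 4, 148448582 to 148557685) encodes the kinase shared by both mTOR complexes. It was at 9.19, 10.0 and 10.1 FPKM in exercise and 9.77, 9.04 and 9.17 FPKM in sedentary livers, and the groups overlapped. The log2 fold change of Mtor was −0.01 (SE 0.04, edgeR adjusted p = 0.828), with an interval of 0.937 to 1.05 for the ratio. Angptl7, which lies within the span of Mtor, had mean counts of 4.67 in exercise and 5.67 in sedentary libraries.

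Rptor (gene ID 74370, chromosome 11, 119602905 to 119899591) encodes raptor, which brings substrates to mTOR complex 1. It was at 7.25, 7.27 and 6.75 FPKM in exercise and 7.03, 6.99 and 6.96 FPKM in sedentary livers. The 3 sedentary values lay inside the exercise range. For Rptor the log2 fold change was −0.05 (SE 0.05, edgeR adjusted p = 0.406), with an interval of 0.906 to 1.03.

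Ddit4 (gene ID 74747, chromosome 10, 59949675 to 59951770) encodes REDD1, which restrains mTOR complex 1 through the TSC proteins and is induced by stress and glucocorticoids. It had 70, 68 and 89 reads in exercise and 74, 63 and 64 reads in sedentary libraries, the fewest of the tested members. Exercise replicate 3 stood above the other 5 libraries, which overlapped. Ddit4 did not pass, with a log2 fold change of 0.12 (SE 0.14, edgeR adjusted p = 0.552), and at this depth the interval of the ratio was as wide as 0.888 to 1.33. Without exercise replicate 3 it was −0.01.

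**Figure D4:**
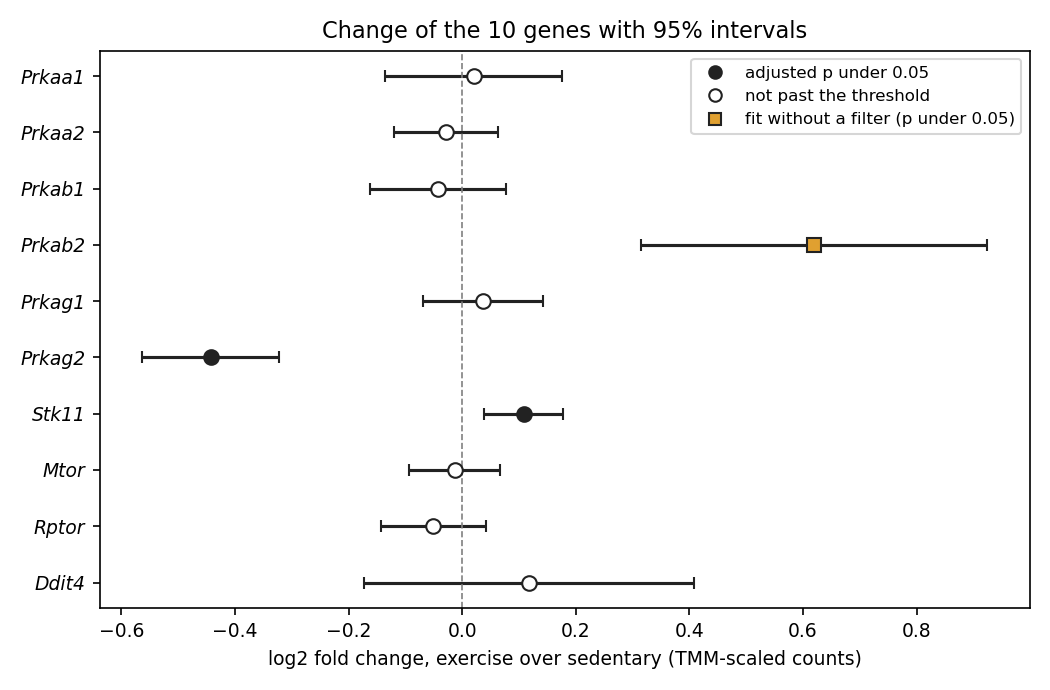
Log2 fold change of the 10 genes, exercise over sedentary, with 95% intervals, from edgeR on TMM-scaled counts of 3 libraries per group. Filled points passed an adjusted p under 0.05 (Prkag2 at −0.44, Stk11 at 0.11), open points did not, and the square is Prkab2 at 0.62 from the fit without a filter on low genes.

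In order of level, Stk11 was highest at 54.7 ± 0.792 TPM in exercise and 47.0 ± 1.48 TPM in sedentary livers, followed in both groups by Prkag1 and Prkab1 (SD, n = 3 each). Next came Mtor at 12.5 ± 0.661 TPM and Prkag2 at 10.3 ± 0.685 TPM in exercise livers, with ranges that did not overlap. In sedentary livers the order of these genes was turned round, Mtor at 11.7 ± 0.445 TPM and Prkag2 at 12.4 ± 0.645 TPM, and their ranges overlapped. Prkaa2 and Rptor followed with overlapping ranges in both groups, then Prkaa1 and Ddit4, which overlapped as well. In exercise livers the range of Prkaa2 also overlapped that of Prkag2. Prkab2 was lowest at 1.28 ± 0.171 TPM in exercise and 0.763 ± 0.0961 TPM in sedentary livers.

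Around the 10 genes, 13 lists of pathway genes held 128 other tested genes, of which 34 rose and 24 fell, and the shares of all tested genes given above are 19.1% and 19.0%. With library totals in place of TMM scaling the list genes gave 56 higher and 12 lower calls, and all tested genes 3536 and 1203. With limma on the TPM scale they gave 57 and 11, and all tested genes 3542 and 881. The lists were chosen with earlier results of these data known, so their counts describe these libraries.

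Kinases related to AMPK that LKB1 also activates had 2 of 8 tested genes higher and 1 lower, with a median log2 fold change of 0.10. Snrk was at 12.4 ± 0.132 FPKM in exercise and 9.73 ± 0.378 FPKM in sedentary livers (SD, n = 3 each, log2 fold change 0.28). Mark3, a kinase of microtubule-associated proteins, rose by 0.20. Sik1, a salt-inducible kinase that restrains the CREB coactivators, was at 3.84 ± 0.188 FPKM in exercise and 4.56 ± 0.426 FPKM in sedentary livers (log2 fold change −0.32, edgeR adjusted p = 0.000203). Its call ended on the TPM scale (limma adjusted p = 0.0656).

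Subunits of the mTOR complexes had 2 of 10 tested genes higher, 1 lower and a median of −0.02. The inhibitory subunit genes Deptor and Akt1s1, which encodes PRAS40, rose by 0.09 and 0.14 on the log2 scale. Mapkap1, the mTOR complex 2 gene for SIN1, had a log2 fold change of −0.15 (edgeR adjusted p = 0.018) and did not pass under every scaling.

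Nutrient-sensing genes upstream of mTOR complex 1, the Rag, Ragulator, GATOR and folliculin genes, had 4 of 23 tested genes higher and 2 lower, with a median of 0.05. Flcn and Fnip2, which encode folliculin and a partner that binds AMPK, had log2 fold changes of 0.15 and 0.17. Nprl2, a GATOR1 gene, was at 11.2 ± 0.657 FPKM in exercise and 8.99 ± 0.477 FPKM in sedentary livers (SD, n = 3 each), and Seh1l, of GATOR2, rose by 0.16.

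The list of the TSC complex, Rheb and stress inhibitors of mTOR complex 1, to which Ddit4 belongs, had 2 of 9 tested genes higher and 3 lower (median 0.03). Sesn2, a leucine-sensing stress protein gene that is also on the ATF4 list, was at 2.87 ± 0.172 FPKM in exercise and 1.80 ± 0.367 FPKM in sedentary livers (SD, n = 3 each). Its log2 fold change was 0.60 (SE 0.13, edgeR adjusted p = 0.000173). Trib3, a pseudokinase gene of the same stress response, had a log2 fold change of 0.45. Tbc1d7 and Tsc1, both subunits of the TSC complex, had log2 fold changes of −0.35 and −0.14, and neither passed under every scaling.

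Effectors of mTOR complex 1 had 1 of 15 tested genes higher and 3 lower (median −0.02). Atg13, an autophagy initiation gene, rose to 21.5 ± 0.685 FPKM in exercise, against 16.2 ± 0.345 FPKM in sedentary livers (SD, n = 3 each). Lpin1, a phosphatidate phosphatase gene, fell to 12.7 ± 0.384 FPKM in exercise, against 16.0 ± 0.515 FPKM in sedentary livers. Eef2k, the kinase gene of elongation factor 2, had a log2 fold change of −0.37. Ulk2 was at −0.10 and turned to 0.01 on the TPM scale.

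Substrates of AMPK had 2 of 20 tested genes higher and 6 lower (median −0.02). Srebf2, which encodes a sterol-responsive transcription factor, was at 12.01 ± 0.590 FPKM in exercise and 13.8 ± 0.541 FPKM in sedentary livers (SD, n = 3 each, log2 fold change −0.29). Foxo3, a forkhead factor gene, was at −0.15 and did not pass under every scaling. Hnf4a, a nuclear receptor gene that is also among the hepatocyte markers, rose by 0.27.

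Adenylate metabolism had 3 of 9 tested genes higher and 1 lower (median 0.04). Ampd2, whose product removes AMP by deamination, was at 12.9 ± 0.336 FPKM in exercise and 9.72 ± 0.401 FPKM in sedentary livers (SD, n = 3 each, log2 fold change 0.32). Adk and Ak4, an adenosine kinase and a mitochondrial adenylate kinase gene, rose by 0.13 and 0.20. Phosphatase genes linked to AMPK had 3 of 7 tested genes higher and none lower (median 0.07), among them Ppm1a (log2 fold change 0.22) and the glycogen-targeting subunit gene Ppp1r3c (0.66).

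Ddit4 is induced by glucocorticoids, by the stress factor ATF4 and by low oxygen in other settings, and lists of genes known for these responses were counted beside it. Glucocorticoid-responsive genes had 6 of 10 tested genes higher and 3 lower (median 0.13). Zbtb16 was at 6.79 ± 0.0265 FPKM in exercise and 2.59 ± 0.198 FPKM in sedentary livers (SD, n = 3 each), and Dusp1, a kinase phosphatase gene, rose by 0.58. Errfi1 and Cdkn1a, the cell cycle inhibitor gene, fell by 0.37 and by 1.35 on the log2 scale.

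The list of ATF4 targets, in which Atf4 itself is counted, had 5 of 9 tested genes higher and 3 lower. Its median of 0.39 was the value of Atf4. Atf4 itself and Ddit3, the gene of the stress factor CHOP, rose by 0.39 and 1.04, while Asns, the asparagine synthetase gene, and Chac1 fell by 1.05 and 1.11. Hypoxia-responsive genes had 5 of 10 tested genes higher and 1 lower (median 0.13). P4ha1, a collagen prolyl hydroxylase gene, was at 4.33 ± 0.105 FPKM in exercise and 2.56 ± 0.0625 FPKM in sedentary livers (SD, n = 3 each), and Pdk1, Vegfa and Bnip3 rose by 0.33, 0.16 and 0.17.

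**Figure D5:**
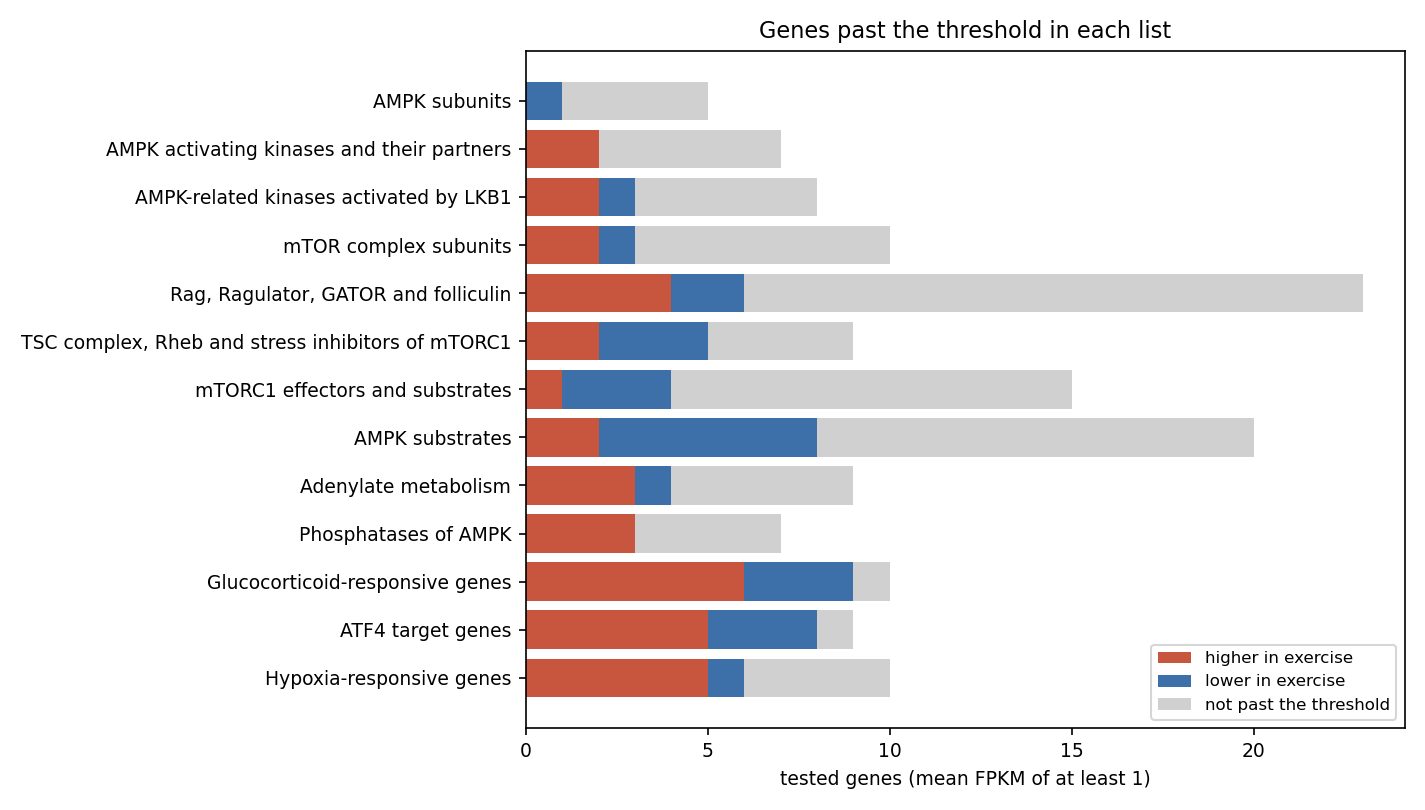
Number of tested genes (horizontal axis) that were higher in exercise, lower in exercise or not past the threshold (edgeR, adjusted p under 0.05) in each of the 13 pathway lists. The AMPK subunit list has 1 gene lower (Prkag2) of 5. The glucocorticoid list has 6 genes higher and 3 lower of 10, and the ATF4 list 5 higher and 3 lower of 9. Among all tested genes 38.1% passed, and the lists were chosen with earlier results of these data known.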

How the data were processed

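Liver RNA of 3 exercise and 3 sedentary libraries was sequenced paired-end on the DNBseq platform, and short or low-quality reads were discarded, both per the labels' protocols. The submitters' processing notes name GRCm38.p6, cutadapt, featureCounts and MultiQC. The sources used here give no versions, aligner or annotation. The deposited estimated counts, FPKM and TPM were used as given per gene and library, and 6 columns of averages were not used. The authors' FPKM is scaled by library size and transcript length, and the deposited TPM to a fixed sum. Counts of 1165 of 16123 genes were not whole in some library, but those of all 10 genes described were.

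Counts were rounded and fitted with edgeR 4.0.16 in R 4.3.3 (TMM scaling, quasi-likelihood F test, two-sided, no covariate) over the 10266 genes whose FPKM averaged 1 or more over the 6 libraries. P-values were adjusted by Benjamini-Hochberg over all of these, with a threshold of 0.05. The SE is the absolute log2 fold change over the square root of F, and 95% intervals use the fit's degrees of freedom. The common biological coefficient of variation was 1.84%. Intervals cover the spread of these libraries alone. Alternatives used DESeq2 1.42.0, limma 3.58.1 and other scalings and filters. The test was checked on simulated data with the spread of these libraries and 50 genes changed at each size. It recovered 22% of 1.1-fold, 76% of 1.25-fold, 94% of 1.5-fold and 100% of 2-fold changes. Small changes such as those of most members can thus be missed. Far fewer genes were changed there than passed in the data.

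Named genes were the 10 members, up to 4 tested genes of each list by smallest p, and the 5 nearest profiles of the member with the largest tested change. Members and lists were chosen with earlier results of these data known. Coordinates and promoter windows are from RefSeq in GRCm38.p6, where all 10 genes matched, with transcripts from GENCODE M21. Protein sequences and the list genes Tnnt3, Lep, Ca9 and Ero1a were not analysed here. A gene that the naming rule gives is not reported here.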

Additional observations from a re-analysis of the deposited data

How the results depend on the processing

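The count of called members, 2 of 9, was 1 with DESeq2, 1 against a tested size of 1.2-fold, 0 with summed libraries at an assumed variation of 0.1, where 1 of 9 had an unadjusted p under 0.05 (edgeR), and 1 to 2 with 1 library left out. The lower value came without sedentary replicate 2, where Stk11 was lost. Libraries of the 2 groups with the same replicate number did not deviate together (r of −0.0306, −0.0159 and −0.025 over genes), so the numbers were not taken as a pairing. With the replicate number as a block, 2 members, 57 list genes and 3846 of all genes were called. Over all genes, 3913 calls became 2512 with DESeq2, 176 with summed libraries and 653 against 1.2-fold, and 3402 to 3491 with 1 library left out. For the list genes, 58 calls became 38, 5 and 13 in the same order, and 48 to 54 with 1 library left out. Mtor, Prkaa2, Prkab1 and Rptor, which passed in no setting, turned in sign with the scaling. The median log2 fold change of all tested genes moved as well, from −0.00062 to 0.077 with library totals alone. It was 0.0626 on log2(FPKM + 1), 0.0711 on log2(FPKM + 0.1) and 0.0956 on log2(TPM + 1). Each of these genes lay below that median in each of these settings. With library totals alone, log2(FPKM + 1), log2(FPKM + 0.1) and log2(TPM + 1), Mtor was at 0.0645, 0.0598, 0.0654 and 0.0937, Prkaa2 at 0.0496, 0.0431, 0.0485 and 0.0748, Prkab1 at 0.0354, 0.0276, 0.0294 and 0.0608, and Rptor at 0.0270, 0.0167, 0.0187 and 0.0488. With 1 library left out, log2 fold changes ran from −0.0144 to 0.193 for Ddit4, −0.0368 to 0.0262 for Mtor, −0.0427 to 0.0767 for Prkaa1, −0.0821 to 0.0211 for Prkaa2 and −0.0818 to 0.00215 for Prkab1. The causes were not tested. With a minimum mean of 5 FPKM, Prkaa1 and Ddit4 gave no value. The alternatives for Prkab2 beyond the missing filter were chosen after the data were seen, and its log2 fold change ran from 0.307 to 0.730 over them. Reads limit Ddit4 and Prkab2 most.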
